A study of Mus musculus with 6 samples.

Results

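The Rab small GTPases were described in mouse macrophages with and without a label of CD22 loss. Members were the genes of the deposited table whose symbol is Rab followed by a number and at most a letter and a further digit, which gave 59 of 31883 genes and left out effectors such as the Rab11 family-interacting proteins. The macrophages were grown from bone marrow of C57Bl/6 mice in 25% L929-conditioned medium, which supplies the macrophage growth factor CSF1, and then received 20 ng/mL IL-4 for 48 hours, which drives them towards the alternatively activated state. There were 3 libraries labelled as global CD22 knockout, in which the gene is lost from all cells and not from macrophages alone, and 3 labelled as wild type, all from IL-4-treated cells, so nothing here compares IL-4 with no IL-4. Neither the animals' ages nor the number of animals behind a group is given in the labels. If libraries of a group share an animal, the spread that the p-values rest on is a technical one.

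Rab proteins are molecular switches. In the GTP-bound state, set by exchange factors, each sits on a particular membrane and recruits effectors that move, tether or fuse vesicles, and GTPase activating proteins return it to the GDP-bound state, in which GDP dissociation inhibitors carry it back to the cytosol. Macrophages use them to internalise particles, to mature phagosomes into degradative compartments, to return receptors to the surface and to secrete.

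Cd22, the gene lost by label, was present in each library, at 8.85, 8.21 and 9.53 FPKM in the knockout-labelled libraries against 8.95, 9.36 and 10.6 FPKM in the wild type libraries (log2 fold change -0.11, limma adjusted p = 0.695), so the groups are called by their labels throughout. The labels do not give which part of the gene was deleted. FPKM counts fragments relative to transcript length and to the library's mapped total, so levels can be compared between genes, while read depth is unknown. FPKM totals ran from 314441 to 348332, and Pearson correlations across genes on the log2 scale were 0.988 to 0.993 within groups and 0.986 to 0.990 between them. The mitochondrially encoded share of FPKM was 17.2%, 20.4% and 15.6% with the knockout label and 11.8%, 11.7% and 16.5% in wild type libraries 1, 2 and 3, so wild type library 3 stood with the other group. The 8 macrophage markers summed to 6625 to 8919 FPKM in the knockout-labelled group and 7110 to 9594 FPKM in wild type, and the 8 IL-4 response markers to 4034 to 4443 and 4104 to 4740. The lists for B cells, T cells, neutrophils, mast cells and fibroblasts each summed to less than 5 FPKM in every library, with Cd3d, Cd3g, Camp, Ly6g, Tpsb2 and Fcer1a listed at 0 throughout. The 6 osteoclast markers summed to 344 to 465 and 425 to 462 FPKM, most of it Atp6v0d2 (means of 292 and 350). Atp6v0d2 and Ctsk had lower means with the knockout label, Ocstamp and Acp5 higher ones, and Calcr and Oscar stayed below 1 FPKM throughout. The 9 epididymal and epithelial markers summed to 39.0 to 48.2 and 41.4 to 53.4 FPKM, most of it Cdh1. Wild type library 2 alone had Lcn5 at 5.16 FPKM and Adam7 at 1.22, against at most 0.0476 and 0.0217 in the other libraries. The 6 adipocyte markers summed to 7.66 to 16.2 FPKM in the knockout-labelled group and 18.6 to 47.0 FPKM in wild type, without overlap, and the 6 skeletal muscle markers reached 5.19 FPKM in wild type library 1 and at most 0.237 in the others. No tested marker was called, but no T cell, neutrophil, mast cell, fibroblast or skeletal muscle marker reached the level needed for testing. Only 1 B cell marker and 1 epididymal or epithelial marker did, so Lcn5 and Adam7 were not tested either. The part of these markers in the results below was not tested. Nnt, which is known to be disrupted in some C57Bl/6 substrains, had 1.84 ± 0.481 FPKM in the knockout-labelled group and 5.52 ± 0.886 in wild type (SD, n = 3 each, adjusted p = 0.00392). A separate gene ID of the same symbol had 1.77 ± 1.19 FPKM against a listed 0. Whether the groups differ in substrain was not tested, and such a difference cannot be told apart from the CD22 label here. The labels put each library in a different batch, so no within-batch value and no fit with batch as a term could be had, and batch and library cannot be told apart.

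The family spanned a wide range of levels. The 5 highest held 49.4% of the summed Rab FPKM, the 26 members with a mean of at least 10 FPKM held 94.2%, and 39 of 59 had a mean of at least 1 FPKM. Rab7, which drives late endosomes and phagosomes to fuse with lysosomes, was the highest at 204, 214 and 209 FPKM in the knockout-labelled libraries against 219, 235 and 219 in wild type. Rab5c, which like its close relatives directs fusion of early endosomes, came next at 126, 122 and 114 FPKM against 120, 123 and 108. Rab7 lay above Rab5c in each library, and Rab5c above Rab8b in each. The groups of Rab5c overlapped, while all 3 wild type values of Rab7 lay above the knockout-labelled ones by a margin that did not pass the test (log2 fold change -0.10, adjusted p = 0.697). Rab8b, Rab1a and Rab1b followed with group means of 84.8, 82.1 and 70.0 FPKM in the knockout-labelled libraries against 99.3, 84.1 and 72.9 FPKM in wild type, and the order of Rab8b and Rab1a in the knockout-labelled libraries was within their spread.

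**Figure D1:**
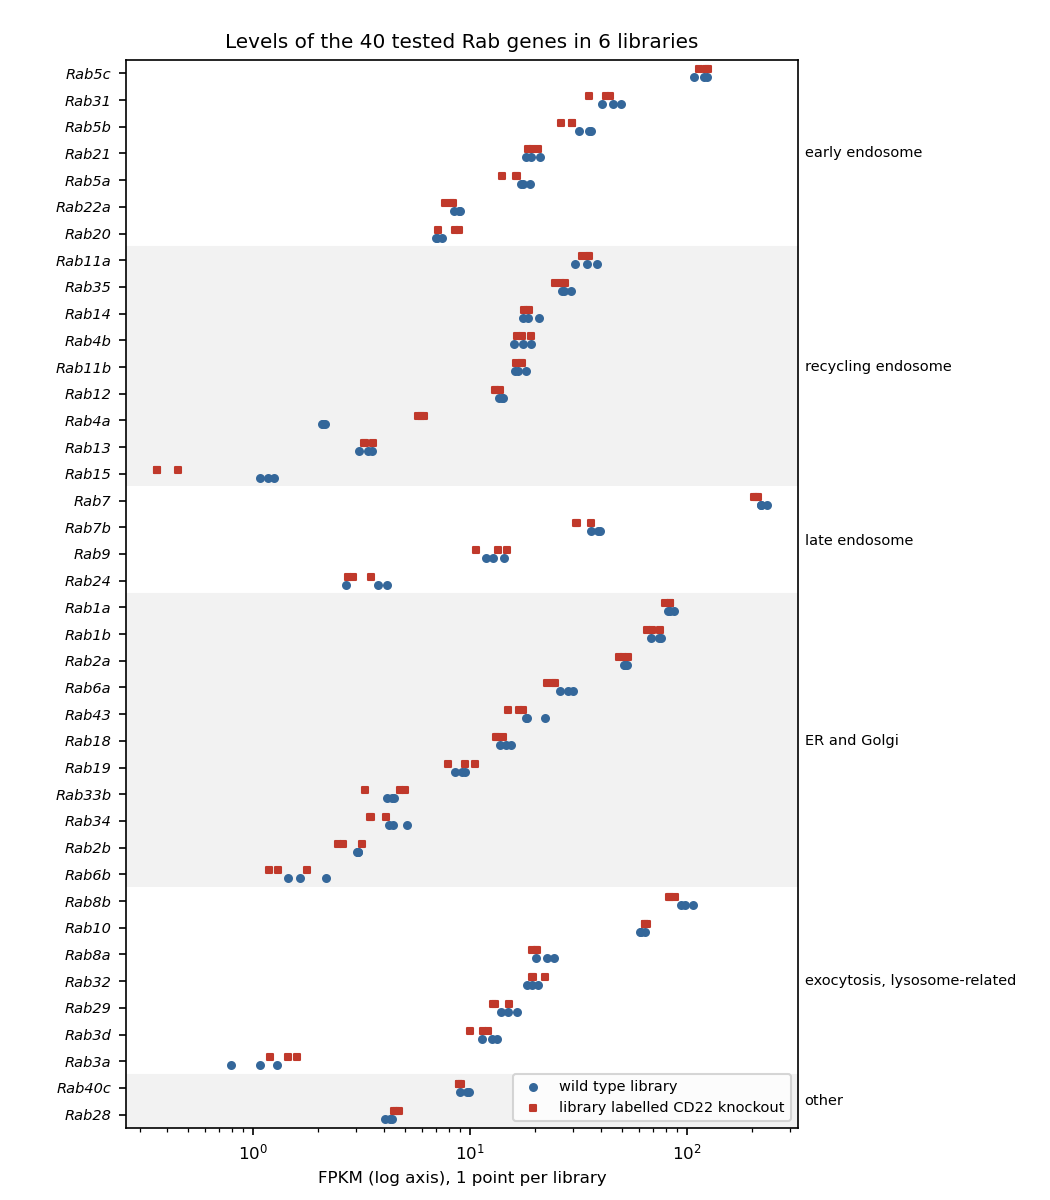
FPKM (log axis) of the 40 tested Rab genes, 1 point per library, with squares for libraries labelled CD22 knockout and circles for wild type, ordered by compartment and then by level. Rab7 and Rab5c lie above 100 FPKM in every library, and the separated squares and circles of Rab4a and Rab15 stand out from the mostly overlapping rows.

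By the place where each member is best known to act, the 7 early endosome genes held 20.9% of the family's FPKM, the 11 recycling endosome genes 11.6%, the 5 late endosome genes 22.8%, the 16 genes of the endoplasmic reticulum and Golgi 24.4%, the 15 of exocytosis and lysosome-related organelles 19.1%, and 5 others 1.27%. Many Rab proteins act at more than 1 membrane, so a gene was placed by its best-known role. Rab7 made up most of the late endosome sum.

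A further 19 members had too little signal to be tested, since testing needed at least 1 FPKM in at least 3 libraries, and together they made up 0.269% of the family's FPKM. Rab23, a regulator of Hedgehog signalling at cilia, came closest with a highest value of 1.02 FPKM, followed by Rab27a, which docks secretory granules, at 0.802, Rab42 at 0.794, Rab39 at 0.655, Rab33a at 0.440 and Rab38, a GTPase of melanosomes, at 0.346. The highest values of Rab44, Rab36 and Rab25 were 0.178, 0.112 and 0.112 FPKM. Rab39b, Rab26, Rab9b, Rab37, Rab3b, Rab40b, Rab30, Rab27b and Rab3c stayed below 0.1 FPKM in every library, and Rab17, known from polarised epithelia, was listed at 0 in each. Rab3a, the synaptic vesicle form, stood just above these, at a mean of 1.41 FPKM in the knockout-labelled group and 1.05 in wild type. Rab26 was named after its values were seen. Its libraries read 0.0308, 0.0219 and 0.0598 FPKM against 0.00236 and listed values of 0 in the other two, and its model overlaps Traf7 on the same strand, so no fold is given.

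Of the 40 tested members, Rab4a rose in the knockout-labelled libraries. Rab15 was also called, lower, but it was tested only because its wild type values passed the filter, and its call is lost without that filter. No other member passed the test, a limma fit on log2(FPKM + 1) over 10777 genes with Benjamini-Hochberg adjustment. Over all genes tested, 44 were called, which is 0.408%. Of these, 16 (0.148%) were higher and 28 (0.26%) lower in the knockout-labelled libraries. The authors' deposited table has Rab4a and Rab15 as the only members with a q-value below 0.05, where 221 of all genes (0.693%) are.

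Rab4a, which returns receptors such as the transferrin receptor quickly from early endosomes to the cell surface, lies on chromosome 8 at 123805985 to 123835287 on the plus strand (GRCm38). Its level was 5.95, 5.74 and 6.15 FPKM in the knockout-labelled libraries against 2.08, 2.15 and 2.11 FPKM in the wild type libraries. Every knockout-labelled value lay above every wild type value, with a gap many times the spread within either group. The means were 5.95 ± 0.204 and 2.11 ± 0.0352 FPKM (SD, n = 3 each), a ratio of 2.82, with a log2 fold change of 1.16 (SE 0.074, limma adjusted p = 3.8e-05). A longer gene model on the same strand, Gm20388, spans Rab4a in the annotation and was not analysed here, so reads that could belong to either model are a limit on this level.

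Rab15, which in cultured mammalian cells has been linked to sorting and recycling of the transferrin receptor, lies on chromosome 12 at 76797960 to 76822908 on the minus strand. It was at 0.359, 0.361 and 0.452 FPKM in the knockout-labelled libraries against 1.08, 1.25 and 1.17 FPKM in wild type. The groups did not overlap, but all values were low. Means were 0.391 ± 0.0531 and 1.17 ± 0.0837 FPKM (SD, n = 3 each), a wild type mean 2.99 times the knockout-labelled one, and the log2 fold change was -0.64 (SE 0.094, limma adjusted p = 0.0142). The added pseudocount shrinks this difference, and the authors' deposited table gives a log2 ratio of -1.58. Rab15 was the 1 member that passed the filter through a single group, so its being tested and its difference are not independent. The call was lost when every gene was kept (adjusted p = 0.128), and leaving out wild type library 1, 2 or 3 or knockout-labelled library 2, with the genes tested kept as they were, moved the adjusted p to between 0.0550 and 0.0695. Without both wild type libraries 1 and 2 it was 0.337. Fntb lies on the opposite strand over Rab15 and had 2.68 FPKM against 2.62, and no source used here says whether counting used strand.

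**Figure D2:**
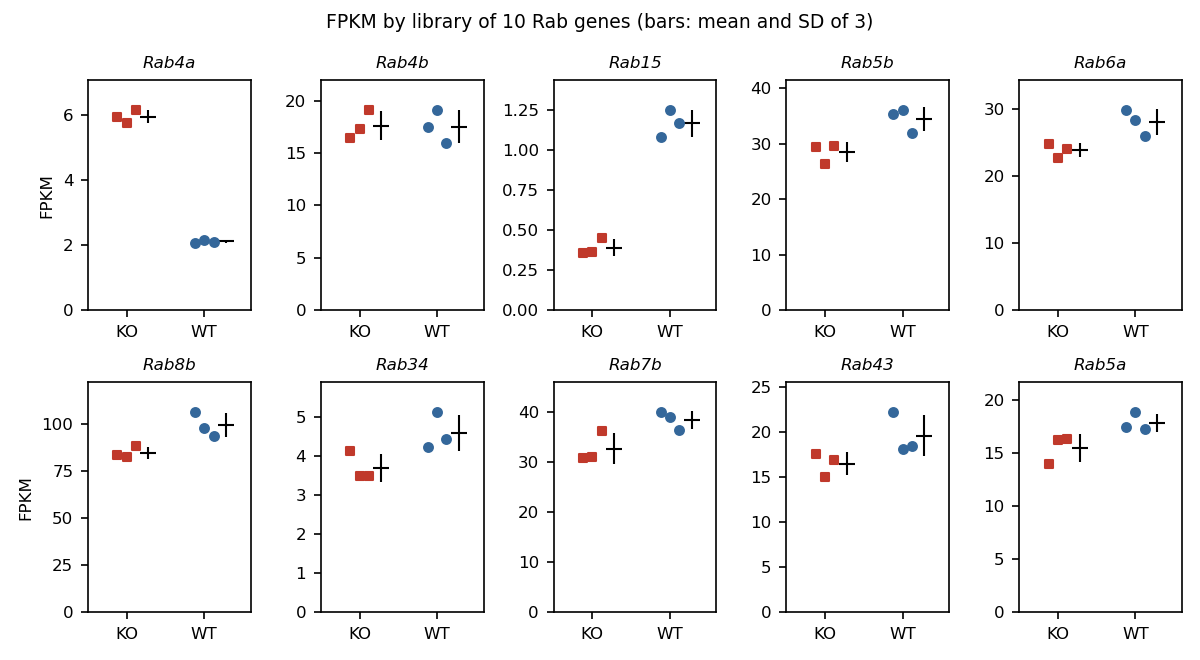
FPKM in each library of Rab4a, its relative Rab4b, Rab15 and the 7 members with an unadjusted p below 0.05 that were not called (y axes start at 0 and differ between panels), with squares for knockout-labelled libraries (KO), circles for wild type (WT) and bars for the mean and SD of 3. Rab4a and Rab15 separate widely in opposite directions, Rab4b overlaps, and the remaining 7 sit lower in the knockout-labelled libraries without overlap.

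The level of Rab4a was small beside that of its close relative Rab4b, which acts in the same recycling route. Rab4b read 16.5, 17.3 and 19.1 FPKM in the knockout-labelled libraries against 17.5, 19.1 and 16.0 FPKM in wild type, so the groups overlapped fully (17.6 ± 1.36 against 17.5 ± 1.57, SD, n = 3 each, log2 fold change 0.01). Rab4a made up 26.5%, 24.9% and 24.3% of the summed Rab4 FPKM in the knockout-labelled libraries against 10.6%, 10.1% and 11.7% in wild type. The Rab4 sum was 22.4, 23.0 and 25.3 FPKM against 19.6, 21.2 and 18.1, and its groups did not overlap either. In the annotation a gene model on the same strand, Gm21983, overlaps Rab4b and was not analysed here. Reads that could belong to either model limit the Rab4b level too, and with it the Rab4 shares and sum. Rab4b lies on chromosome 7, as Cd22 does, 3.69 Mb away, whereas Rab4a and Rab15 are on other chromosomes.

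Among the other sets of close relatives, the shares within Rab1, Rab2, Rab6, Rab7, Rab8 and Rab11 overlapped between groups. Within Rab5 the share of Rab5a overlapped, while those of Rab5b and Rab5c did not. Rab5b was 17.4%, 16.0% and 18.4% of the Rab5 sum in the knockout-labelled libraries against 20.4%, 20.2% and 20.3% in wild type, and Rab5c was 74.3%, 74.2% and 71.3% against 69.4%, 69.2% and 68.8%. The Rab5 sum itself overlapped (164.6 ± 4.45 against 169.4 ± 10.9 FPKM). The sums of Rab6, Rab7 and Rab8 were each lower in every knockout-labelled library than in any wild type library. These shares were not tested. Near-identical pseudogene copies had their own values, at 8.69 against 11.4 FPKM for Rab7-ps1 and 13.4 against 13.3 for Rab11b-ps2, so levels of Rab7 and Rab11b are uncertain where reads could match both.

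**Figure D3:**
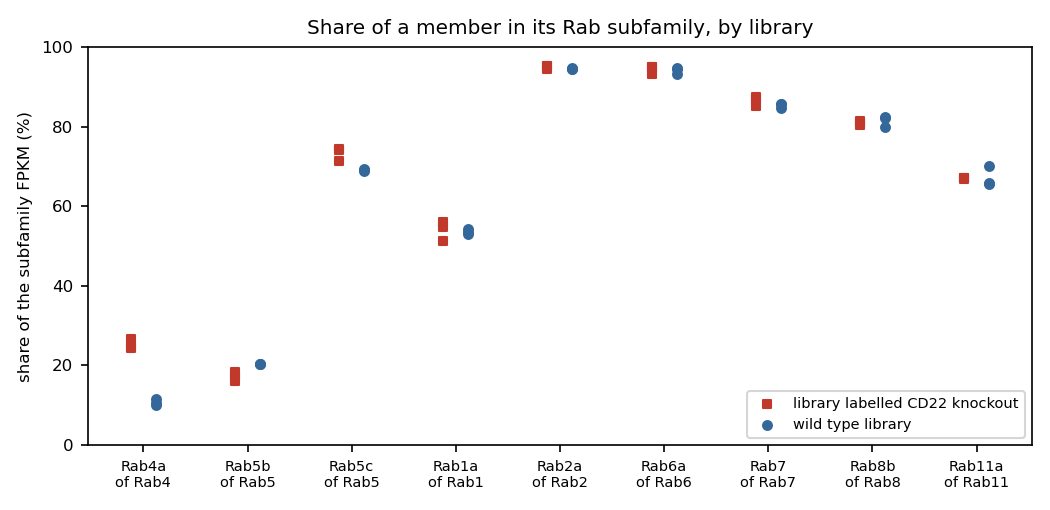
Share (%) of a member in the summed FPKM of its Rab subfamily, 1 point per library, with squares for knockout-labelled libraries and circles for wild type. The Rab4a share separates at 24.3% to 26.5% against 10.1% to 11.7%, the Rab5b and Rab5c shares separate by a few percentage points, and the others overlap.

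The start regions of members with contrasting behaviour are shown so that the called Rab15 can be read beside Rab4b, whose groups overlapped, Rab5b, the uncalled member with the smallest p, and Rab7, the highest member. Each is a RefSeq window of 300 bases around a start site (GRCm38.p6), printed 5′ to 3′ on the minus strand, on which all of them lie. Capitals mark the GC box GGGCGG in either orientation and the palindrome TTC and GAA with 4 bases between them, which STAT6, the transcription factor activated by IL-4, is known to prefer. Rab15 and Rab7 have further start sites in RefSeq, and for each the window farthest upstream is given.
Rab15 chr12:76822475-76822774: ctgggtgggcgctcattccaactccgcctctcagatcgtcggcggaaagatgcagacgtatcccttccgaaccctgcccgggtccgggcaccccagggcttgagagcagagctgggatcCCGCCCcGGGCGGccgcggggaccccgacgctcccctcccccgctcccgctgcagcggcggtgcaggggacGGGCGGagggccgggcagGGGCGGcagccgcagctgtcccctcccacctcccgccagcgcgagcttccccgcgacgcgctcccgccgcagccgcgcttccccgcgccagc
Rab4b chr7:27178834-27179133: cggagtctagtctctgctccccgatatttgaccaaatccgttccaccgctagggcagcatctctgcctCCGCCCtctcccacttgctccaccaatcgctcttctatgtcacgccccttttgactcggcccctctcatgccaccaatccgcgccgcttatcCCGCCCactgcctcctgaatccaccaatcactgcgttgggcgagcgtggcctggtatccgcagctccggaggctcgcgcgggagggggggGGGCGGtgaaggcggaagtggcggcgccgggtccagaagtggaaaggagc
Rab5b chr10:128696219-128696518: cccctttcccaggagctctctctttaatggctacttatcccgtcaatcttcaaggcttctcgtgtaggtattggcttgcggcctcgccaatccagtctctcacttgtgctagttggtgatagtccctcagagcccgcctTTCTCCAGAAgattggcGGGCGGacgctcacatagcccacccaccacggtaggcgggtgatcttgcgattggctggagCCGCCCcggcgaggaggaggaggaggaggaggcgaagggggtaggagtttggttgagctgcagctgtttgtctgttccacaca
Rab7 chr6:88045221-88045520: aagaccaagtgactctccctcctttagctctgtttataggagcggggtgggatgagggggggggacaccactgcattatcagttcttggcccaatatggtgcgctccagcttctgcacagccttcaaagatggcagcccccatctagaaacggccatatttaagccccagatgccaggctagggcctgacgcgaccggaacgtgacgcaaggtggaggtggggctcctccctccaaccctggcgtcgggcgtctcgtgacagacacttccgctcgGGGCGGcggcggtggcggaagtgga

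The Rab15 window holds 4 GC boxes, that of Rab4b 3, that of Rab5b 2 beside a match to the STAT6 palindrome, and that of Rab7 1, while the other Rab7 window holds 3. Windows were found for 48 members, with Rab4a not among them. A GC box on either strand was present in 36 of them (75%), against 38.2% of 27025 genes, and the median GC content was 61.2% against 52.7%. The STAT6 palindrome was in windows of Rab5b, Rab11b and, at another start site, Rab15 (6.25% of members against 8.01% of genes), TATAAA in 4 members (8.33% against 15.7%) and the E-box CACGTG in 6 (12.5% against 8.09%). Each motif was searched on both strands, and the palindrome and CACGTG read the same on both. A match is only a description of the window.

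Apart from Rab4a and Rab15, the remaining 38 tested members gave no call, and their values leaned lower in the knockout-labelled libraries. None was called by limma or had a q-value below 0.05 in the authors' deposited table. Their log2 fold changes ran from -0.27 to 0.24 with a median of -0.07, against -0.02 over all genes tested. Of the 38, 27 were below 0 (71.1%), against 57.9% of all genes. The exchange factors, GTPase activating proteins and effectors described below also leaned lower, at 77.8%, 69.7% and 72.2% of those tested. Unadjusted p was below 0.05 for 7 of 38 (18.4%), all lower, against 11% of all genes (6.39% lower and 4.57% higher). The groups did not overlap for 10 of 38 (26.3%), 9 of them lower and 1 higher. Over all genes that share was 17.1%, made up of 10.7% lower and 6.43% higher. With Rab15 added, 39 members had a median of -0.08. With Rab4a also, 28 of 40 (70%) were lower, 9 had an unadjusted p below 0.05 (22.5%), 12 did not overlap (30%), and the median was -0.07.

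The 59 members summed to 1146, 1140 and 1152 FPKM in the knockout-labelled libraries against 1231, 1245 and 1150 FPKM in wild type, so wild type library 3, whose mitochondrial share was like that of the other group, also had a Rab sum like theirs. As a share of nuclear transcripts the sums were 0.409%, 0.411% and 0.412% against 0.444%, 0.433% and 0.413%, which did not overlap, though wild type library 3 lay just above the other group. When FPKM was rescaled to nuclear transcripts, a choice made after the shares were seen, the Rab median was 0.00 with 20 of 40 members lower and 5 with an unadjusted p below 0.05. All genes moved too, their median by 0.06 to 0.04, and 36.9% of them were lower on that scale against 57.9% as deposited. On that scale, 52 genes were called over all, 30 of them higher, against 16 of 44 on the deposited scale. The Rab median was below that of all genes by 0.05 as deposited and by 0.04 after rescaling. Without wild type libraries 1 and 2 the Rab median was -0.02 against 0.01 for all genes. The part of mitochondrial content in the lean was not tested beyond these values, and in bulk RNA less RNA per cell and fewer cells cannot be told apart.

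**Figure D4:**
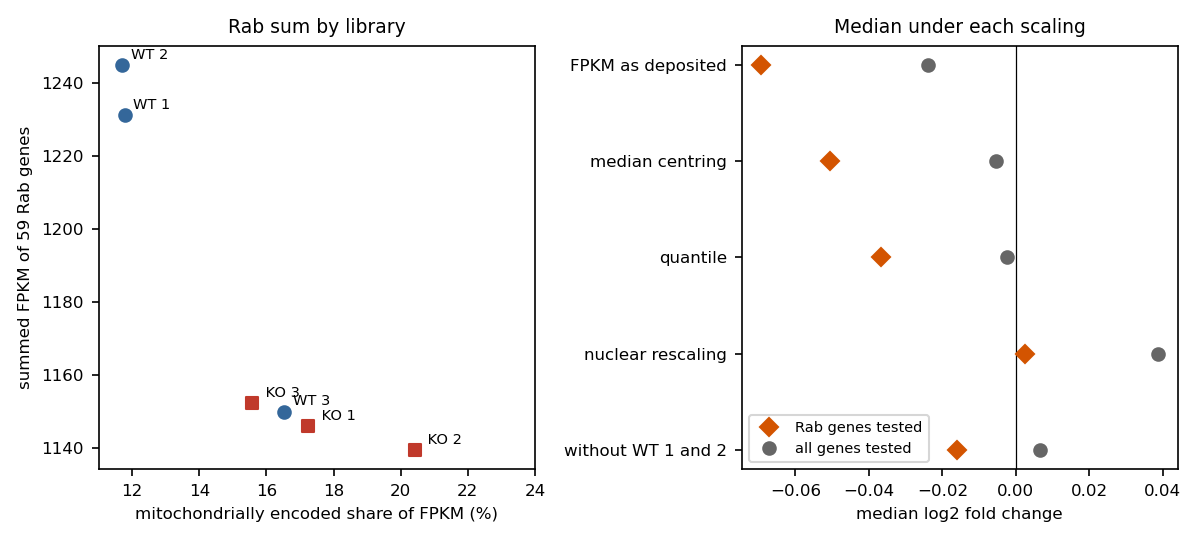
Left, summed FPKM of the 59 Rab genes against the mitochondrially encoded share of FPKM (%), 1 point per library, with squares for knockout-labelled (KO) and circles for wild type (WT). Right, median log2 fold change of the tested Rab genes (diamonds) and of all genes tested (circles) under each scaling. Wild type library 3 sits with the knockout-labelled libraries on the left, and the Rab median lies left of the all-gene median in each row on the right.

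**Figure D5:**
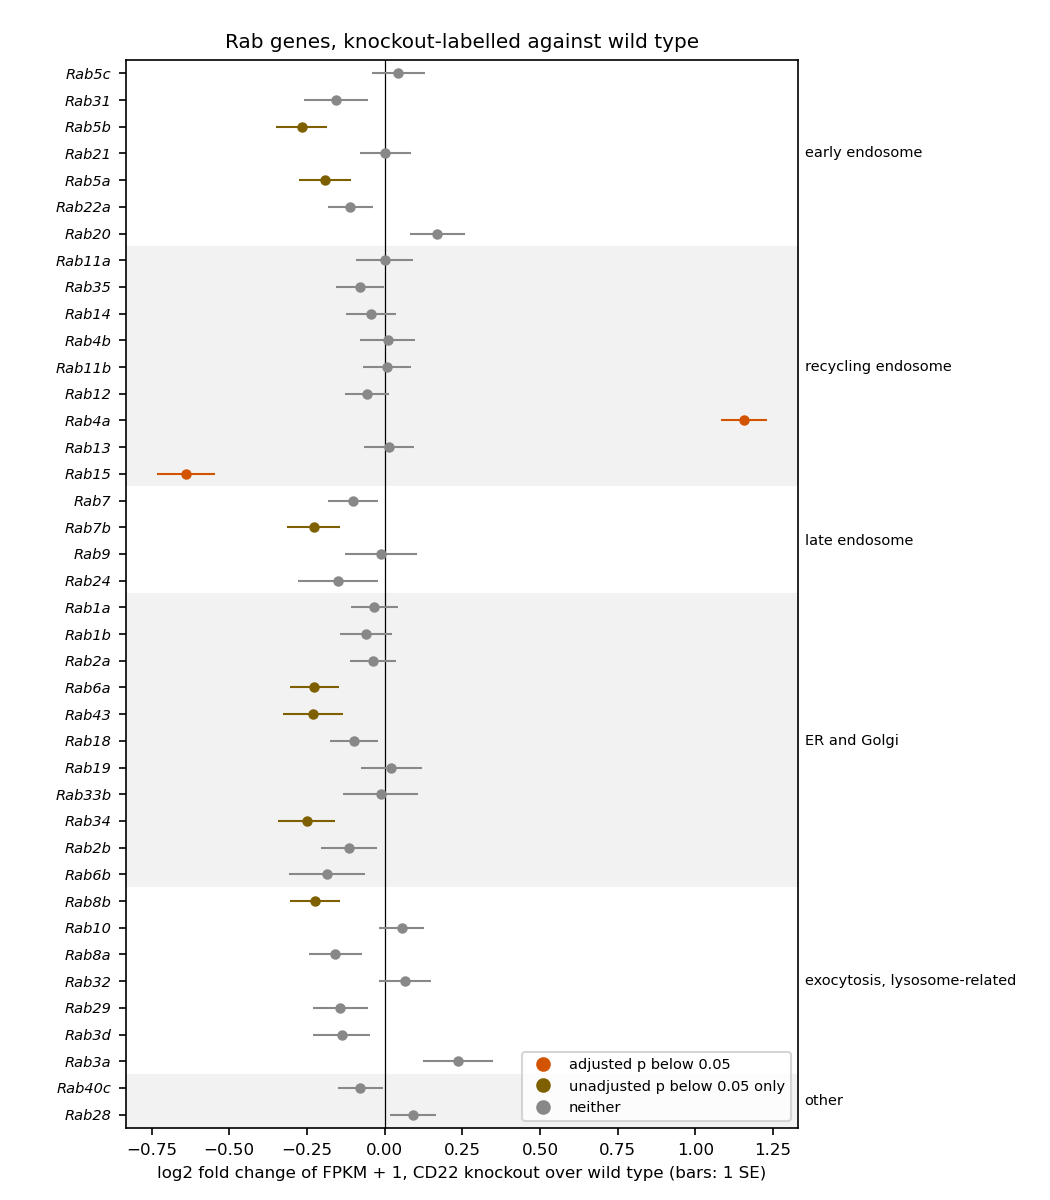
Log2 fold change of FPKM + 1 for the 40 tested Rab genes (x axis), knockout-labelled over wild type, with bars of 1 SE, grouped by compartment and coloured by the limma test. Rab4a at 1.16 and Rab15 at -0.64 stand apart, and the other members lie between -0.27 and 0.24.

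In the early endosome group none of 7 members was called by limma, and the median log2 fold change was -0.11. An unadjusted p below 0.05 was reached by 2 (28.6%, against 11% of all genes tested), and 4 were lower (57.1%, against 57.9%). Rab5b had 29.4, 26.4 and 29.5 FPKM in the knockout-labelled libraries against 35.3, 36.0 and 31.9 FPKM in wild type, all of the latter being higher. Its log2 fold change was -0.27 (SE 0.082, unadjusted p = 0.00814, limma adjusted p = 0.268), the smallest p of any uncalled member. Rab5a, the best-studied form in phagosome formation, was at 14.0, 16.2 and 16.4 FPKM against 17.5, 18.9 and 17.3, without overlap (log2 fold change -0.19, limma adjusted p = 0.427). Rab5c overlapped at a log2 fold change of 0.04. Rab22a, of early endosome sorting, had means of 8.06 and 8.78 FPKM, Rab31, which moves cargo from the Golgi to endosomes, 40.6 and 45.3, and Rab21, known for integrin traffic, 19.4 in both groups. Rab20, which is known to act in macrophage phagosome maturation, was the early endosome member with the highest fold change, at 8.20 ± 0.940 against 7.15 ± 0.231 FPKM (log2 fold change 0.17, adjusted p = 0.520).

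The recycling endosome group held Rab4a and Rab15, the 2 called members, where 0.408% of all genes tested were called. Rab15 was tested only through its wild type values, and its call was lost without the filter. The other 7 tested members of the group had log2 fold changes from -0.08 to 0.02 with a median of -0.00. None of these 7 had an unadjusted p below 0.05, and each overlapped between groups. Rab11a, which marks the slow recycling route, was the highest of the group at 35.0, 35.6 and 33.0 FPKM in the knockout-labelled libraries against 34.6, 38.7 and 30.6 FPKM in wild type, so the wild type values spanned the others. Rab35, of a fast recycling route at the plasma membrane, had means of 26.2 and 27.7 FPKM, Rab14 18.3 and 19.0, Rab11b 17.0 and 16.9, Rab12 13.4 and 14.0 and Rab13, of epithelial junction traffic, 3.38 and 3.34. Summed over the 11 listed members, the group was at 136.7 ± 1.80 FPKM in the knockout-labelled libraries and 136.4 ± 8.33 in wild type, with overlap.

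In the late endosome group all 4 tested members had a log2 fold change below 0, against 57.9% of all genes tested. The median was -0.13, none was called by limma and 1 had an unadjusted p below 0.05 (25%, against 11%). That member was Rab7b, which in human cells is known for transport from late endosomes to the Golgi, at 30.8, 31.0 and 36.2 FPKM against 39.9, 38.9 and 36.3. The groups were separated only by the narrow gap between knockout-labelled library 3 and wild type library 3 (log2 fold change -0.23, limma adjusted p = 0.368). Rab9, which returns mannose 6-phosphate receptors to the Golgi, had means of 13.0 FPKM in both groups, and Rab24, linked to autophagy, 3.05 ± 0.406 and 3.52 ± 0.760.

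Of the 11 tested members of the endoplasmic reticulum and Golgi, 10 had a log2 fold change below 0 (90.9%, against 57.9% of all genes). The median was -0.10, none was called by limma and 3 had an unadjusted p below 0.05 (27.3%, against 11%). Rab1a, which carries cargo from the endoplasmic reticulum to the Golgi, was the highest at 79.0, 83.6 and 83.7 FPKM against 83.6, 87.0 and 81.6, with overlap. Rab6a, of traffic within and out of the Golgi, was at 24.8, 22.7 and 24.1 FPKM against 29.9, 28.4 and 26.0, without overlap (log2 fold change -0.23, limma adjusted p = 0.337). Its relative Rab6b, mainly a neuronal form, was low at 1.42 and 1.75 FPKM.

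Rab43, a Golgi form, was at 17.5, 15.0 and 16.9 FPKM against 22.2, 18.1 and 18.4 (log2 fold change -0.23, limma adjusted p = 0.411). Rab34, which acts at the Golgi and in positioning lysosomes, was at 4.12, 3.50 and 3.48 FPKM against 4.22, 5.12 and 4.44 (log2 fold change -0.25, limma adjusted p = 0.352). The gap between the groups was small for both, at knockout-labelled library 1 and a neighbouring wild type value. Rab2a had means of 50.8 and 52.1 FPKM, Rab18, known from lipid droplets, 13.6 and 14.6, Rab19 9.29 and 9.08, Rab2b 2.74 and 3.04, and Rab33b, which binds an autophagy protein, 4.34 and 4.33.

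In the exocytosis and lysosome-related group none of 7 tested members was called by limma, and the median was -0.14. An unadjusted p below 0.05 was reached by 1 (14.3%, against 11% of all genes), and 4 were lower (57.1%, against 57.9%). Rab8b, of traffic to the plasma membrane, was the highest member at 83.9, 82.3 and 88.3 FPKM against 106, 97.9 and 93.8, without overlap (log2 fold change -0.22, limma adjusted p = 0.350). Its relative Rab8a overlapped at means of 20.0 and 22.5 FPKM. Rab10, which in macrophages is known to carry Toll-like receptor 4 to the surface, was at 64.4 and 62.0 FPKM, and Rab32, of lysosome-related organelles, at 20.3 and 19.4. Rab29, a partner of the kinase LRRK2, had 13.6 and 15.1 FPKM and Rab3d, of secretory granules, 11.2 and 12.4. Rab3a had the highest log2 fold change after Rab4a, at 0.24 (unadjusted p = 0.0612, adjusted p = 0.475), from values near 1 FPKM.

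Of the members outside these groups, Rab40c, part of a ubiquitin ligase, was at 8.88, 9.05 and 8.93 FPKM against 9.01, 9.67 and 9.87, with means of 8.96 and 9.52, and Rab28, known from cilia, was at 4.58 and 4.24 FPKM. Rab28 was the 1 member besides Rab4a whose knockout-labelled values all lay above wild type among those tested, and it was not called (log2 fold change 0.09, adjusted p = 0.701).

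Of the 7 uncalled members with an unadjusted p below 0.05, how many kept that p under the alternatives, which reuse the same libraries, varied from 7 to 0. It was 6 with median centring or quantile normalization, 1 (Rab5b) after rescaling to nuclear transcripts, 2 without wild type library 1, and 0 without knockout-labelled library 2. Each of these members kept a log2 fold change below 0 in every fit that tested it. The range was -0.22 to -0.17 without knockout-labelled library 2. Without wild type libraries 1 and 2, which leaves 1 wild type library, it was -0.21 to -0.12.

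The genes that load, switch and read Rab proteins gave 1 call over 4 lists, where 0.408% of all genes tested were called. The 8 genes of prenylation and membrane recycling, which attach the lipid anchor and extract Rab proteins from membranes, had no call and no unadjusted p below 0.05, with a median log2 fold change of -0.03. Rabggtb, a subunit of the enzyme that adds the anchor, had 14.2 ± 0.339 FPKM against 12.7 ± 1.52, and Chm, the escort protein that presents Rabs to it, 4.57 ± 0.440 against 5.20 ± 0.491. Of 31 exchange factors 27 were tested, none was called by limma, 2 had an unadjusted p below 0.05 (7.41%, against 11% of all genes) and 21 were lower, with a median of -0.06 against -0.02 for all genes. Dennd4c, which acts on Rab10, had the smallest p of the list, at 23.1 ± 1.14 against 27.6 ± 4.10 FPKM.

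Among 37 GTPase activating proteins 33 were tested, 1 was called and 23 were lower, with a median of -0.07. Of these 33, 4 had an unadjusted p below 0.05 (12.1%, against 11% of all genes). The called gene was Tbc1d23, a family member without the catalytic residues that links endosome-derived vesicles to the Golgi. It fell from 13.0, 13.0 and 12.4 FPKM in wild type to 6.23, 6.60 and 7.14 FPKM in the knockout-labelled libraries, a log2 fold change of -0.85 (SE 0.076, limma adjusted p = 6.7e-04), without overlap. The call was lost without a filter on low values and without wild type libraries 1 and 2. Tbc1d15, which acts on Rab7, had 19.7 ± 0.964 against 23.2 ± 0.436 FPKM and was not called (adjusted p = 0.297). Of 48 effectors 36 were tested, none was called by limma and 26 were lower, with a median of -0.05. An unadjusted p below 0.05 was reached by 6 effectors (16.7%, against 11% of all genes). All 6 were lower, as were 6.39% of all genes at that p. Optn, which binds Rab8, was at 3.75 ± 0.136 against 4.67 ± 0.391 FPKM and Lrrk2, the kinase of several Rab proteins, at 0.993 ± 0.0625 against 1.39 ± 0.0561. The knockout-labelled values of Lrrk2 were 0.997, 1.05 and 0.929 FPKM, so it was tested only because its wild type values passed the filter. Its being tested and its difference are therefore not independent.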

How the data were processed

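RNA of 6 libraries was analysed from a gene table that the authors deposited, with FPKM per gene and library and no read counts. Library preparation was stranded, from poly(A) RNA, with paired reads, per the labels' protocols. Tools listed in the submitters' processing notes, without roles or versions, are HISAT2, StringTie, cutadapt, FastQC, edgeR and DESeq2. No source used here names the genome build. The table also holds the authors' fold (a ratio of mean FPKM), its log2, and, per the file headers, a p-value and q-value from a comparison made by the authors. Positions came by gene ID from GENCODE mouse release M21 (GRCm38), which held 31792 of 31883 IDs.

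FPKM was put on the scale log2(FPKM + 1), and genes with at least 1 FPKM in at least 3 libraries were tested in limma 3.58.1 (R 4.3.3) with group as the 1 term, a trended prior variance and robust moderation, 2-sided, with Benjamini-Hochberg adjustment over all 10777 genes and a threshold of 0.05 for a call. Log2 fold changes are differences on that scale, which understates changes of low genes. Depth is unknown, so no counting intervals are given, and an FPKM of 0 is described as listed at 0. The number of genes called ranged from 3 to 87 over the alternatives listed below. A gene that was not called is therefore not shown to be unchanged.

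The members and all lists were chosen with earlier results of these data known, so members are described by counts beside those of all genes and no list was tested as a set. Values in every library are given for Rab4a, Rab15, Rab4b, the highest member of each compartment, the 2 highest of the family, and members with an unadjusted p or an authors' q below 0.05. Partner genes named are those called, or otherwise the 2 lowest p-values of each list, and Tbc1d15 was named after its values were seen. A gene that this rule names is not reported here. Alternatives were another pseudocount, other filters, other scalings, no robust moderation, a replicate block, libraries left out and, added after seeing the data, rescaling to nuclear transcripts and leaving out libraries with the genes tested kept.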

Additional observations from a re-analysis of the deposited data

How the results depend on the processing

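Rab4a was called in every fit run. The all-gene counts were the least stable: 44 were called (16 higher, 28 lower), against 3 (1 and 2) without a filter on low values and 11 (7 and 4) without wild type libraries 1 and 2. Leaving out each library in turn gave 28 to 87 calls (7 to 33 higher, 15 to 54 lower), the most without knockout-labelled library 3 and the fewest without knockout-labelled library 2. Rescaling to nuclear transcripts left 30 called higher. The cause of these shifts was not tested. Calls of Rab genes, and of recycling endosome genes, went from 2 to 1 without a filter, at 5 FPKM or more, without wild type libraries 1 and 2, and ranged from 1 to 2 when a library was left out. Without Rab4a they went from 1 to 0 in the same settings, and from 0 to 1 over libraries left out. By construction Rab15 leaves the genes tested at 5 FPKM or more and when a wild type library is left out. With the genes tested kept, its adjusted p was 0.0171 to 0.0695 over single libraries.

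Median log2 fold changes moved by more than their spread over libraries as follows. Rescaled to nuclear transcripts they were 0.0025 for the family, with and without Rab4a and Rab15, -0.0076 without Rab4a, -0.043 for early endosomes, 0.073 for recycling endosomes, -0.028 for the endoplasmic reticulum and Golgi, 0.071 for other members, 0.044 for prenylation, -0.00028 for exchange factors, -0.0070 for activating proteins and 0.016 for effectors. Without wild type libraries 1 and 2 they were -0.016 for the family, -0.017 without Rab4a or without both Rab4a and Rab15, -0.0030 for early endosomes, 0.085 for recycling endosomes, -0.027 for the endoplasmic reticulum and Golgi, -0.017 for exocytosis, -0.038 for other members and -0.012 for activating proteins, where the 1 call was lost (0 called), as it was without a filter. Without a filter the medians were -0.045 for the endoplasmic reticulum and Golgi, -0.015 for exocytosis and -0.078 for other members, the last also at 5 FPKM or more. Over libraries left out, recycling endosomes ranged from -0.063 to 0.022 and activating proteins from -0.11 to -0.0099.

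Of the members given with values in every library, those whose direction turned were all near 0 in the fit described above. Over libraries left out, Rab4b ranged from -0.052 to 0.070, Rab5c from -0.012 to 0.082 and Rab11a from -0.083 to 0.081. Rab11a was also at 0.018 with median centring, 0.028 with quantile normalization, 0.073 rescaled to nuclear transcripts and 0.17 without wild type libraries 1 and 2. Rab1a was at 0.0080 without wild type libraries 1 and 2 and 0.040 rescaled to nuclear transcripts.

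The labels number the libraries 1 to 3 in both groups without saying that a number is shared. Deviations of same-numbered libraries correlated at 0.0559, -0.0336 and 0.0703 across genes, which does not meet the criterion for pairing, and not every library correlated best with its own number. With the number as a replicate block, 63 genes were called over all and 2 Rab genes remained called, Rab15 at an adjusted p of 0.0439. Read depth is unknown. Over 1599 genes of low level listed above 0 in every library, the commonest FPKM ratio of wild type library 1 to each other library was taken. It was 1.11 for each knockout-labelled library, and 1.02 and 0.966 for wild type libraries 2 and 3. This is only a rough measure of relative depth, and how far depth limits members below 1 FPKM was not assessed.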
